A study of Mus musculus with 6 samples.

Results

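The AP-1 and immediate early factors described here are 10 genes of 52550 in the deposited gene table: Fos, Fosb, Fosl1 and Fosl2 of the FOS family, Jun, Junb and Jund of the JUN family, and Atf3, Egr1 and Ier3. They were chosen by symbol, and all 10 passed the filter on low counts. The cells were mouse primary keratinocytes, freed from the epidermis of newborn wild-type C57BL/6 pups at postnatal day 0 to 2 with dispase and trypsin and grown for 2 days. IL-33, an alarmin related to IL-1, was given in recombinant form for 12 h to the cells of 3 libraries, and the sources used here do not give its dose. The cells of the other 3 libraries stayed untreated. Neither the number of pups per culture nor the number of cultures per group is stated. The p-values and intervals therefore rest on a spread between libraries that could be purely technical. No time point other than 12 h was analysed here.

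AP-1 is a dimer of basic leucine zipper (bZIP) proteins that binds the DNA site TGACTCA. JUN proteins pair with each other or with FOS proteins, while FOS proteins need a JUN or similar partner to bind DNA, and ATF3 can pair with JUN proteins. Fos, Egr1 and Ier3 are classic immediate early genes, whose transcripts appear soon after a stimulus without new protein synthesis and usually decay fast. In the epidermis AP-1 takes part in proliferation, wound responses and differentiation. Receptors of the IL-1 family act through the adaptor MyD88 on NF-kB and on the MAP kinases, which in turn act on AP-1.

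The libraries held 34188173 to 45266298 deposited estimated counts, the shallowest being IL-33 replicate 2. A deposited count is not a fragment: about 4 seem to stand for 1, a scale inferred from the values and not stated by any source used here. On that scale the floor used here, 3 fragments per library, is 12 deposited counts. The labelled cell type was checked by its markers. The 7 basal keratinocyte markers (Krt5 and Krt14 among them) summed to 34760.4 to 37574 CPM (deposited counts scaled to a common library size with TMM factors) in the 6 libraries. The 5 suprabasal markers summed to 14.1 to 17.5 CPM. Markers of other cells were present at lower levels: 6 melanocyte genes at 1111 to 1206 CPM, 6 fibroblast genes at 26.5 to 38.1 CPM and 3 endothelial genes at 13.5 to 19.2 CPM. Of 5 leukocyte markers, which summed to 0.088 to 3.10 CPM, 4 (Ptprc, Cd74, Cd207 and Cd3e) stayed under the floor in every library. The other, Lyz2, had 0.364, 0.470 and 2.94 CPM with IL-33 and 0.760, 0.193 and 0 CPM without, highest in IL-33 replicate 3. These are bulk libraries, so fewer cells of a type and less RNA per cell cannot be told apart.

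After 12 h of IL-33, the estimated levels of all 10 factors were close to those in untreated cells. With edgeR's quasi-likelihood test, 0 of 10 passed an adjusted p of 0.05, against a background of 0.0697% of the 15778 genes tested (0.0444% higher and 0.0254% lower with IL-33). The adjusted p of the members ran from 0.74 to 0.992. DESeq2 also called 0 of the 10, where it called 0.463% of all genes, and limma-voom and limma on FPKM at both pseudocounts called 0. Without adjustment, 2 members had a p under 0.05, and 6.74% of all genes did. Log2 fold changes (IL-33 minus untreated) lay between -0.20 and 0.23, 5 above 0 and 5 below. Their median size regardless of sign was 0.04, against 0.11 over all genes tested. These medians were not matched for level, and scarce genes spread more, so they do not show that the members were unusually stable. For 9 of the 10 members the 95% interval lay inside 1.5-fold in either direction, and the exception was Fosb, the scarcest of them. That interval reflects the spread between these libraries, which need not be the spread between cultures.

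**Figure D1:**
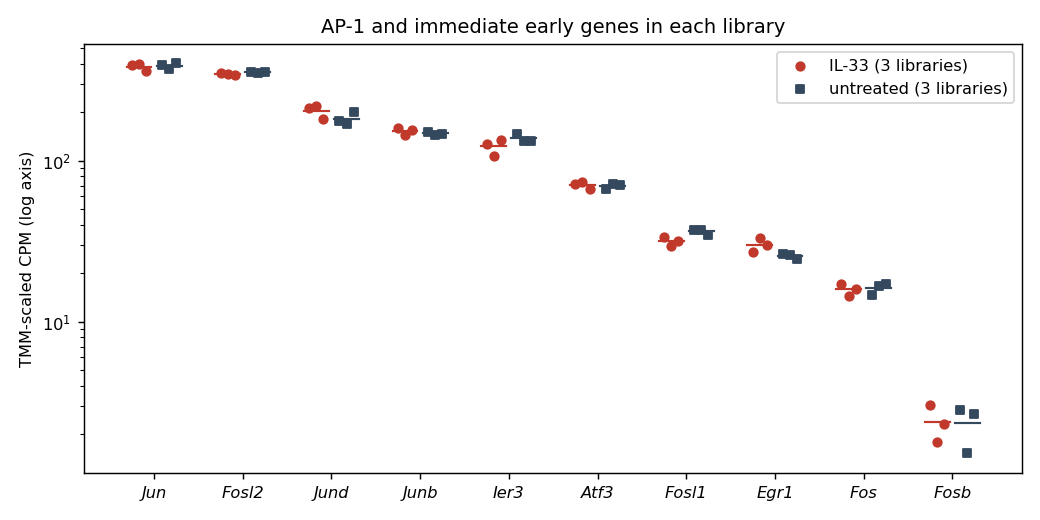
TMM-scaled CPM on a log axis for each of the 10 genes, ordered by mean level, with IL-33 libraries as circles, untreated libraries as squares and group means as short lines. Jun and Fosl2 lie near the top at 340.7 to 400.5 CPM and Fosb at the bottom at 1.52 to 3.05 CPM, and in 8 of the 10 genes the groups overlap.

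Levels of different genes were compared per length, in FPKM (fragments scaled by exon length and library size). Over all 6 libraries Jun averaged 108.4 ± 4.88 FPKM, Jund 104 ± 10.8 FPKM and Ier3 103 ± 10.5 FPKM (SD, n = 6). The ranges of these 3 overlapped, so their order is not settled by these libraries. Junb followed at 58.6 ± 2.36 FPKM, then Fosl2 at 32.4 ± 0.623 FPKM, Atf3 at 29.3 ± 1.11 FPKM and Fosl1 at 17.9 ± 1.59 FPKM, each lower in every library than the lowest value of the gene before it. Fos, at 6.09 ± 0.438 FPKM, and Egr1, at 5.58 ± 0.61 FPKM, had overlapping ranges. Fosb averaged 0.336 ± 0.0899 FPKM, under all the others. The cultures thus held JUN family transcripts well above FOS family transcripts in either group. The FPKM of the 3 JUN genes summed to 286.7, 286 and 259 in the IL-33 libraries and 264, 250.5 and 278 in the untreated libraries. The 4 FOS genes summed to 57.2, 53.3 and 54.7 FPKM with IL-33 and to 58.6, 58.4 and 58.4 FPKM without it.

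Positions are on GRCm38 from GENCODE M21. Among the FOS genes, Fosl2 (ENSMUSG00000029135.10, chr5:32135801-32157842, plus strand), which encodes FRA-2, was the most abundant, and its coefficient of variation (1.33% with IL-33 and 1.09% untreated) was the lowest of the 10. It stood at 349.6, 343 and 340.7 CPM in the IL-33 libraries, against 355, 349 and 357 CPM in the untreated libraries. IL-33 replicate 1 lay just above untreated replicate 2, so the groups overlapped slightly. Its log2 fold change was -0.04 (SE 0.036, 95% interval -0.12 to 0.04, edgeR adjusted p = 0.88). Fosl1 (ENSMUSG00000024912.5, chr19:5447547-5455946, plus strand) encodes FRA-1, which in mouse and human cells depends on sustained ERK signalling. Fosl1 had 33.6, 29.6 and 31.7 CPM with IL-33, against 37.2, 37.2 and 34.6 CPM in untreated cells. Every IL-33 library was below every untreated one. The log2 fold change of Fosl1 was -0.20 (SE 0.079, 95% interval -0.38 to -0.02), a ratio of 0.871, and it did not pass over all genes (unadjusted p = 0.0313, edgeR adjusted p = 0.74). Leaving out each library in turn gave Fosl1 an unadjusted p from 0.0207 to 0.114, and adjusted p from 0.579 to 0.958 (edgeR). It was above 0.05 unadjusted without IL-33 replicate 2 (0.114), IL-33 replicate 3 (0.0583), untreated replicate 1 (0.0762) or untreated replicate 2 (0.0822).

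Fos (ENSMUSG00000021250.13, chr12:85473890-85477273, plus strand), the founding member of its family, had 17.04, 14.5 and 16.1 CPM with IL-33 and 14.7, 16.6 and 17.04 CPM without it. The groups overlapped throughout, with the lowest value in IL-33 replicate 2. Its log2 fold change was -0.02 (SE 0.11, 95% interval -0.27 to 0.22, edgeR adjusted p = 0.982). Fosb (ENSMUSG00000003545.3, chr7:19302696-19310051, minus strand), whose protein is known from neurons for its stable short form, had only 134, 61 and 102 deposited counts in the IL-33 libraries and 127, 63 and 122 in the untreated libraries, which would be 15.2 to 33.5 fragments on the inferred scale of 4 counts each. Replicate 2 was lowest in both groups, and the interval of its log2 fold change was wide, from -0.66 to 0.71 around 0.02 (edgeR adjusted p = 0.992). As a ratio that interval runs from 0.631 to 1.63, and a smaller difference in Fosb was not detectable at this depth.

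Jun (ENSMUSG00000052684.4, chr4:95049034-95052222, minus strand) encodes an AP-1 subunit that the JNK kinases phosphorylate. It stood at 391, 398 and 359.8 CPM in the IL-33 libraries, against 389, 368 and 400.5 CPM in untreated libraries. High and low values occurred in both groups. The log2 fold change of Jun was -0.01 (SE 0.05, 95% interval -0.12 to 0.10, edgeR adjusted p = 0.978). Junb (ENSMUSG00000052837.6, chr8:84974484-84978718, minus strand), often an antagonist of Jun in proliferation and a gene with a known role in mouse skin inflammation, had 159, 144 and 155 CPM with IL-33 and 150.4, 144.8 and 147 CPM without. IL-33 replicate 2 was the lowest and IL-33 replicate 1 the highest of all 6. Its log2 fold change was 0.05 (SE 0.051, 95% interval -0.07 to 0.16, edgeR adjusted p = 0.894). Jund (ENSMUSG00000071076.6, chr8:70698949-70700616, plus strand), the JUN gene known for broad steady expression, had 211, 217 and 182 CPM with IL-33 and 176, 168 and 199 CPM in untreated cells, so the highest untreated library exceeded the lowest IL-33 library. The log2 fold change of Jund was 0.16 (SE 0.084, 95% interval -0.03 to 0.36, edgeR adjusted p = 0.763).

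Atf3 (ENSMUSG00000026628.13, chr1:191170296-191218039, minus strand), a stress-induced repressor and activator of the bZIP class, stood at 71.6, 73.5 and 67.0 CPM with IL-33 and 67.1, 71.2 and 70.4 CPM in untreated cells. The groups overlapped fully (log2 fold change 0.02, SE 0.062, 95% interval -0.11 to 0.16, edgeR adjusted p = 0.964). Egr1 (ENSMUSG00000038418.7, chr18:34859823-34864984, plus strand), a zinc finger factor induced through serum response factor, had 27.3, 32.8 and 29.9 CPM with IL-33, against 26.4, 26.0 and 24.4 CPM in untreated cells. Every IL-33 library was above every untreated one. The log2 fold change of Egr1 was 0.23 (SE 0.092, 95% interval 0.02 to 0.43), a ratio of 1.17, and it did not pass over all genes (unadjusted p = 0.0336, edgeR adjusted p = 0.74). Leaving out each library in turn gave Egr1 an unadjusted p from 0.0134 to 0.136, and adjusted p from 0.579 to 0.958 (edgeR). It was under 0.05 unadjusted only without IL-33 replicate 1, and leaving out IL-33 replicate 2 or 3 gave 0.136 or 0.0583, while leaving out untreated replicate 1, 2 or 3 gave 0.0517, 0.0646 or 0.0993. Ier3 (ENSMUSG00000003541.6, chr17:35821684-35822923, plus strand), a target of NF-kB and ERK that bears on cell survival, had 127, 106 and 134 CPM with IL-33 and 147, 133 and 132 CPM without. IL-33 replicate 2 was the lowest library and IL-33 replicate 3 lay among the untreated ones (log2 fold change -0.17, SE 0.086, 95% interval -0.36 to 0.03, edgeR adjusted p = 0.763). Without IL-33 replicate 2 the log2 fold change of Ier3 was -0.08. Fosl1 and Egr1 were thus 2 of 10 members without overlap between the groups, while 13.7% of all genes tested showed none. Egr1 was the 1 member above, against 7.39% of all genes, and Fosl1 the 1 below, against 6.26%.

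**Figure D2:**
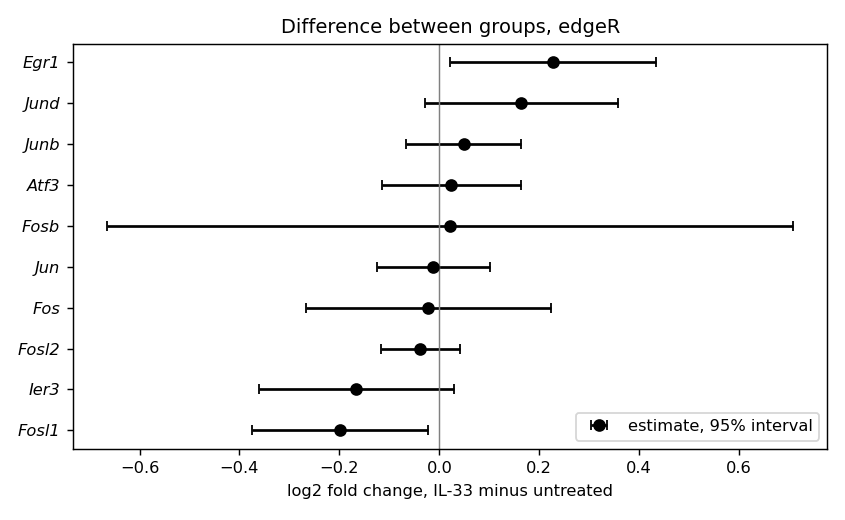
Log2 fold change (IL-33 minus untreated) of each gene from edgeR, with bars for the 95% interval. Estimates run from -0.20 for Fosl1 to 0.23 for Egr1, the interval of Fosb is the widest, and those of Fosl1 and Egr1 end at -0.02 and start at 0.02.

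The makeup of each family was described as the share of each gene in the summed family FPKM. Fosl2 held 58.2 ± 1.56% of FOS family FPKM with IL-33 and 56.2 ± 0.749% without (SD, n = 3 each). Fosl1 held 30.2 ± 0.883% and 32.7 ± 1.24%, Fos 11.0 ± 0.542% and 10.5 ± 0.825%, and Fosb 0.612 ± 0.146% and 0.57 ± 0.183%, IL-33 before untreated in each case. In the JUN family, Jun held 38.96 ± 0.425% with IL-33 and 41.2 ± 0.524% in untreated cells, Jund 39.5 ± 1.67% and 37.0 ± 1.5%, and Junb 21.6 ± 1.80% and 21.8 ± 1.01%. The shares of Fosl1 and Jun were lower in all 3 IL-33 libraries than in any untreated library, by 2.48 and 2.24 percentage points on average. A two-sided exact permutation test gave p = 0.1 for each, the smallest that 3 against 3 libraries allow, and 0.35 after adjustment over the 7 shares compared. The other shares of gene FPKM overlapped between the groups, with exact permutation p from 0.2 to 0.8. Shares within a family are linked, since a higher share of a gene lowers those of the others, so the 7 tests are not independent. A lower share is not a lower level: the CPM of Jun overlapped between the groups (log2 fold change -0.01). The share of Jund was 2.53 points higher with IL-33 on average.

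**Figure D3:**
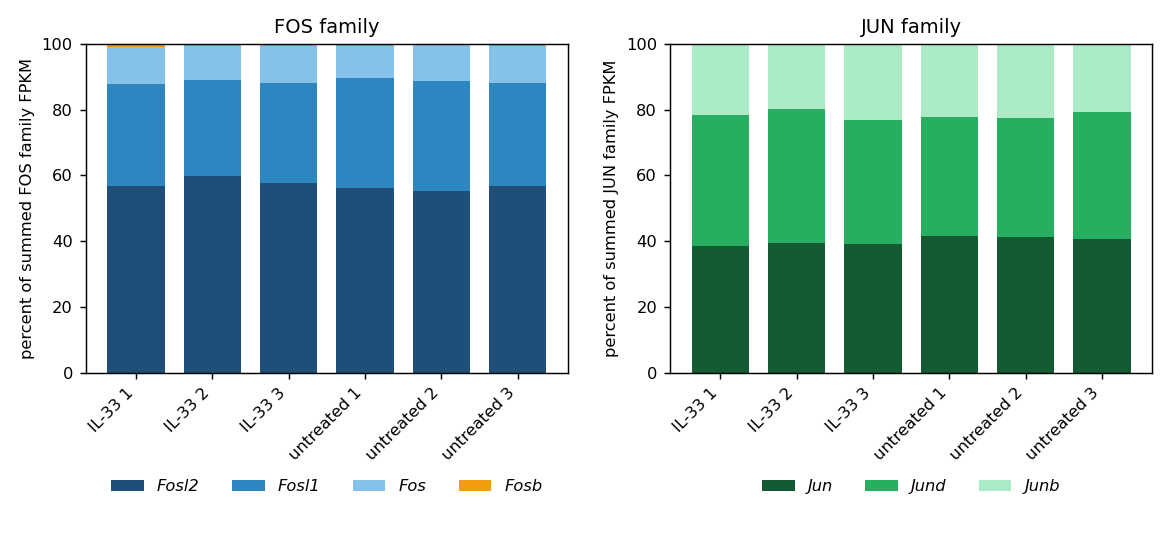
Share of each gene in the summed FPKM of the FOS family (left) and JUN family (right), in percent, 1 bar per library with IL-33 libraries left of untreated ones. Fosl2 fills 55.4 to 59.9% of the FOS bars, Fosb is barely visible, and Jun and Jund take similar parts of the JUN bars.

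These shares rest on the length by which a gene's FPKM was divided. For 9 of the 10 members that length in the deposited gene table equals the union of all exons annotated in GENCODE M21, including exons of transcripts with almost no counts. For Fosl1 it equals the 1864 bases of Fosl1-201, its 1 transcript in the deposited table, where the union in GENCODE M21 is 2033 bases. Fosl2 has 1 coding transcript of 6537 bases, which took 99.7% of its counts, and 2 retained-intron transcripts that raise the union to 9680 bases. Summing the FPKM of its transcripts gave Fosl2 48.3 ± 0.913 FPKM, which is 1.49 times the gene value. The same ratio was 1.29 for Junb and 1.84 for Fosb, and 1 for Jun, Jund, Fosl1, Egr1 and Ier3. On summed transcript FPKM, an alternative added after the data had been seen, Fosl2 held 65.3% and Fosl1 24.2% of the FOS family, and the order of the 10 genes was the same as on gene FPKM. The share of Fosl2 was then 65.04, 67.9 and 65.8% in the IL-33 libraries and 64.8, 63.6 and 64.9% in the untreated libraries, without overlap (exact permutation p = 0.1, 0.233 after adjustment over the 7 shares).

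The transcript table held 25 annotated transcripts of the 10 genes, and 16 of them passed the filter. With edgeR none of the 16 was called (0 of 16; 0 at an unadjusted p under 0.05; 0 by DESeq2), where 0.0299% of all 40163 transcripts tested were called. The main transcripts of Fosl1, Egr1, Jun, Jund and Ier3 carried all counts of their genes, so the same counts were fitted again. Fosl1-201 had an unadjusted edgeR p of 0.0717 (95% interval -0.43 to 0.03) and Egr1-201 one of 0.0799 (-0.04 to 0.48). For both, the unadjusted p and interval thus depended on whether genes or transcripts were fitted together. A single coding transcript took nearly all counts of most members, and the lowest such share was the 83.4% of Fosb held by Fosb-201. The other transcripts were scarce and uneven. The transcript Atf3-203, for example, had 102 deposited counts in IL-33 replicate 2 and 0 in the other 5 libraries. The main transcript Atf3-201 stood at 31.8 FPKM in IL-33 replicate 2, inside its range of 30.1 to 32.4 FPKM over the 6 libraries. The 3 noncoding Fos transcripts had 0 to 18 deposited counts per library. Of the 25, 3 were listed at 0 in all 6 libraries, among them Egr1-202.

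4 members share exon bases with a gene on the opposite strand, and no source used here states that strand was used in counting, so their reads cannot be told apart there. Jund shares 877 bases with Gm11175, which had 138, 134 and 117 CPM with IL-33 and 113, 103 and 132 CPM without. Gm11175, like Jund, was highest in IL-33 replicates 1 and 2 and lowest in untreated replicate 2 (log2 fold change 0.15, edgeR adjusted p = 0.812). Fosl1 shares 1163 bases with Ccdc85b, Jun 232 with Junos, and Junb 173 with Prdx2, whose log2 fold changes were 0.06, 0.00 and -0.11 (edgeR adjusted p = 0.964, 0.997 and 0.763). With the partner's counts added, an alternative chosen after the data had been seen, the log2 fold change of Fosl1 was -0.13 (edgeR adjusted p = 0.768), that of Jund 0.16, that of Jun -0.01, and that of Junb turned to -0.03 (edgeR adjusted p = 0.914). All counts of the partner were added, not only those on shared bases, so each value describes the sum of both genes.

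The promoters of the members that hold a cyclic AMP response element (CRE) core or an AP-1-like site are shown because CREB, ATF and AP-1 dimers bind such letters and several of these genes are known to be controlled through them. The sequences are the 150 bases before the RefSeq start on GRCm38.p6, the assembly also called mm10, read 5′ to 3′ on the gene's strand. RefSeq promoters were matched for 8 of the 10 genes, the other 2 being Fosl1 and Egr1. Capitals mark TGACG or its complement CGTCA, and TGACNTCA.
Fos (chr12:85473740-85473889, plus strand): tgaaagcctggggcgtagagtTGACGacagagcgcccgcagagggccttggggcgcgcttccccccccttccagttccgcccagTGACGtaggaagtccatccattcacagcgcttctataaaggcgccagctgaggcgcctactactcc
Fosb (chr7:19310046-19310195, minus strand): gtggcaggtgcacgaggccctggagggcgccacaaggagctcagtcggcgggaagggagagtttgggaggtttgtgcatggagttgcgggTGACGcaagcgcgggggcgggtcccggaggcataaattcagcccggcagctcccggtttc
Jun (chr4:95052223-95052372, minus strand): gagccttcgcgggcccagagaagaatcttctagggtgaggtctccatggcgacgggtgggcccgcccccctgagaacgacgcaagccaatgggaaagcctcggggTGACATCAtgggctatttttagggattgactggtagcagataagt
Junb (chr8:84978749-84978898, minus strand): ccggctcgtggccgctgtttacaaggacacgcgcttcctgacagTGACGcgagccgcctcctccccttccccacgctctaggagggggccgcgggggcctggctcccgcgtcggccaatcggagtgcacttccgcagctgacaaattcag
Atf3 (chr1:191183334-191183483, minus strand): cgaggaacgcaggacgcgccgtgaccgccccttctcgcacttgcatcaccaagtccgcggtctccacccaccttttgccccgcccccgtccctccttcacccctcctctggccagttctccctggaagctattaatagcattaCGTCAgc

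Fos holds TGACG starting 129 and 66 bases before its start, Fosb 60 bases and Junb 106 bases before it, and Atf3 the complement CGTCA 7 bases before it. These are 4 of 8 members, while 13.3% of 32851 promoter windows of the same length hold the letters on either strand. Jun holds TGACATCA 45 bases before its start, a match to TGACNTCA, which 5.7% of the windows hold. The full AP-1 site TGACTCA is in none of the 8 windows and in 2.84% of all. TGACGTCA, the full CRE, which contains TGACG and is itself a TGACNTCA, is in none of the 8 and in 1.36% of all. GCGNGGGCG, the EGR site, is in those of Fosb and Fosl2 and in 3.81% of all windows, and the kB site of NF-kB is in that of Ier3 and in 2.38% of all. The CArG box of serum response factor is in none of the 8 and in 0.916% of all. Bases beyond these 150 were not searched for any of the letters, nor was the promoter of Egr1 or Fosl1. The Atf3 window lies inside the gene span given above, and the bases before the outermost annotated start of Atf3 were not searched. A match here is a description of letters and not a site shown to be bound. The 5 genes whose sequences are printed had log2 fold changes from -0.02 to 0.05. Of the searched genes not printed, Fosl2 had -0.04, Ier3 -0.17 and Jund 0.16. Any link between these letters and the fold changes was not tested.

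The wider setting of the factors was read from lists chosen by known role. Of 15 other bZIP proteins that pair with AP-1 subunits or share their sites, 12 were tested (Batf2, Batf3 and Nrl were too low). Their log2 fold changes were above 0 in 7, where 7967 of all 15778 genes tested were, and the median was 0.00, as over all genes tested (0.00). None was called (edgeR 0, DESeq2 0, limma-voom 0), and 2 had an unadjusted edgeR p under 0.05, where 6.74% of all genes did. Maf, a large MAF factor, lay low, at 3.003, 3.58 and 3.37 CPM with IL-33 and 2.86, 1.40 and 2.52 CPM without (edgeR adjusted p = 0.763). Atf4, the factor of the integrated stress response, was abundant, at 872, 871 and 849 CPM with IL-33 and 923, 941 and 881 CPM in untreated cells, without overlap (log2 fold change -0.08, edgeR adjusted p = 0.741).

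Of 39 other immediate early genes listed, 38 were tested, 15 with a log2 fold change above 0 and 23 below, with a median of -0.03. Over all 15778 genes tested, 7967 lay above 0. None was called (edgeR 0, DESeq2 0, limma-voom 0), and 2 had an unadjusted p under 0.05, against 6.74% of all genes. The groups did not overlap in 5 of the 38, with IL-33 above in 1 and below in 4, against 7.39% and 6.26% of all genes. Zfp36l2, an RNA-binding protein that promotes decay of AU-rich mRNAs, had 485, 469.5 and 452 CPM with IL-33, against 506, 485 and 527 CPM in untreated cells (log2 fold change -0.11, edgeR adjusted p = 0.74). The polo-like kinase Plk2 stood at 507, 501 and 497 CPM with IL-33, against 539, 519.8 and 529.8 CPM without, a log2 fold change of -0.08 (edgeR adjusted p = 0.74). Its relative Plk3 had a log2 fold change of -0.10 (edgeR adjusted p = 0.763).

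Of the 23 kinases and factors upstream of AP-1, all tested, 19 lay above 0 on the log2 scale (median 0.03), where 7967 of all 15778 genes did. None of the 23 was called (edgeR 0, DESeq2 0, limma-voom 0), and 0 had an unadjusted edgeR p under 0.05, where 6.74% of all genes did. Mapk3, which encodes ERK1, had 71.2, 78.2 and 69.9 CPM with IL-33 and 72.5, 60.7 and 61.0 CPM without (edgeR adjusted p = 0.763). Mapk8, which encodes JNK1, had a log2 fold change of -0.22 and Rps6ka1, a kinase activated by ERK, one of 0.12 (edgeR adjusted p = 0.814 and 0.783). Both moved when 1 library was left out. That of Mapk8 was -0.10 without IL-33 replicate 2 and -0.42 without IL-33 replicate 3 (edgeR adjusted p = 0.171), and that of Rps6ka1 was 0.05 without IL-33 replicate 1 and 0.19 without IL-33 replicate 3 (edgeR adjusted p = 0.412). These are transcript levels, and kinase activity was not measured. Of 8 genes that control AP-1 proteins, none was called (edgeR 0, DESeq2 0, limma-voom 0) and the median log2 fold change was -0.02. Among these 8, 1 had an unadjusted edgeR p under 0.05, where 6.74% of all genes did. That 1 was the deacetylase gene Sirt1, at 20.3, 26.9 and 24.2 CPM with IL-33 and 27.8, 30.4 and 33.3 CPM in untreated cells (log2 fold change -0.36, edgeR adjusted p = 0.687). The ubiquitin ligase genes Det1 and Fbxw7 had log2 fold changes of -0.19 and 0.12 (edgeR adjusted p = 0.75 and 0.839).

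**Figure D4:**
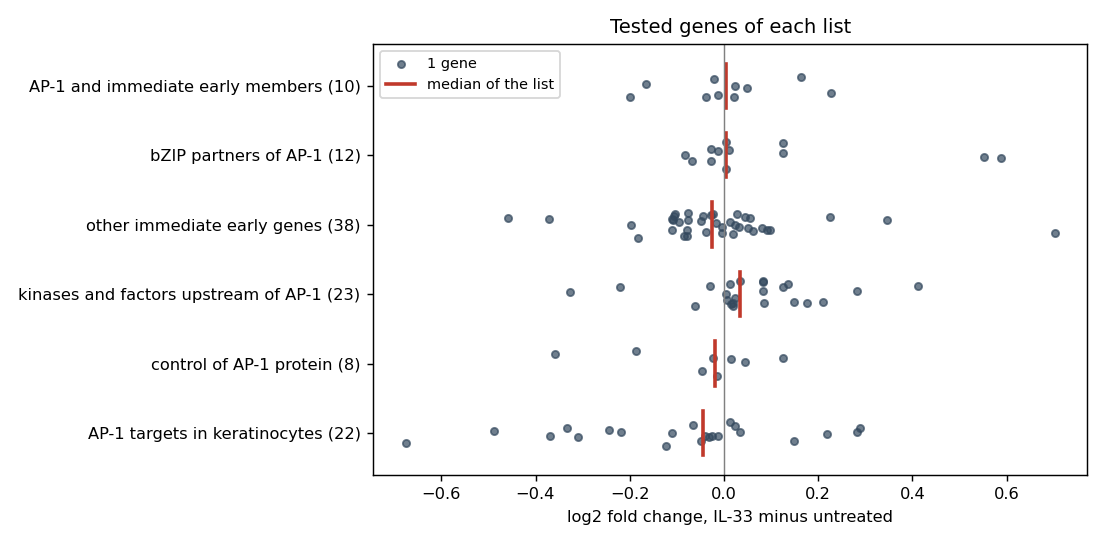
Log2 fold change (IL-33 minus untreated) of every tested gene in 6 lists, 1 point per gene, with the number tested in brackets and the list median as a vertical bar. Medians lie from -0.04 for AP-1 targets to 0.03 for upstream kinases, near the 0.00 of all genes tested.

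Of 23 genes known as AP-1 targets in keratinocytes or other cells, 22 were tested. Of these, 7 lay above 0 on the log2 scale, where 7967 of all 15778 genes did, and the median was -0.04. edgeR and limma-voom called 0 of them, 7 had an unadjusted p under 0.05 (2 higher, 5 lower), against 6.74% of all genes, and DESeq2 called 1, Ptgs2, against 0.463%. The groups did not overlap in 8 of the 22, with IL-33 above in 2 and below in 6, against 7.39% and 6.26% of all genes. The list was chosen with earlier results of these data known. Ptgs2, the inducible prostaglandin synthase, had 257, 247 and 291 CPM with IL-33, against 341, 315 and 330.2 CPM in untreated cells, without overlap. Its log2 fold change was -0.31 (SE 0.062, edgeR adjusted p = 0.307). The DESeq2 adjusted p was 0.00909, and without IL-33 replicate 3 the edgeR adjusted p was 0.00826, in a range of 0.00826 to 0.752 over the alternatives. Cd44, the hyaluronan receptor, had 492, 420.4 and 477 CPM with IL-33 and 563, 561 and 521 CPM without (log2 fold change -0.24, edgeR adjusted p = 0.504). The matrix protease gene Mmp10 had 17.9, 19.99 and 20.6 CPM with IL-33 and 16.4, 15.8 and 15.7 CPM in untreated cells (log2 fold change 0.29, edgeR adjusted p = 0.71).

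The genes whose pattern over the 6 libraries was most like that of Fos, among 6096 genes with a mean log2 CPM of at least 5, were Rab11a, Eif2ak1 and Thumpd1, with Pearson r of 0.983, 0.971 and 0.969 on log2 CPM. Those most like Fosl1 were Litaf, Tmem115 and Cd44, with r of 0.995, 0.993 and 0.99. With 6 points and so many genes such values are a description only. Of 9 heat shock genes, read as a sign of culture stress, none was called (edgeR 0, DESeq2 0, limma-voom 0) and 2 had an unadjusted p under 0.05, against 6.74% of all genes. IL-33 was above without overlap in 3 of the 9 (Hspa1b, Hspa1a and Hspa8), against 7.39% of all genes, and below without overlap in 0. The 9 summed to 7196, 7696 and 7609 CPM with IL-33, against 6981, 6653 and 7361 CPM without, and untreated replicate 3 lay above IL-33 replicate 1. Hspa1b stood at 278, 265 and 271 CPM with IL-33 and 254, 247 and 241 CPM in untreated cells (log2 fold change 0.14, edgeR adjusted p = 0.623), Hspa1a had a log2 fold change of 0.13 (edgeR adjusted p = 0.74) and Hspa8 one of 0.24 (edgeR adjusted p = 0.757). Any part of this in the values of Egr1 and Fosl1 was not tested.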

How the data were processed

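The submitters' processing notes name the build mm10 and, with no role for any of them, StringTie 1.3.4d, HISAT2 2.1.0, DESeq2 1.18.1 and FastQC 0.11.7. Which annotation release was counted is not given in the sources. The deposited tables hold estimated counts, as whole numbers, and FPKM, per the file headers, for genes and transcripts of each library. The authors' gene FPKM equalled length-weighted transcript FPKM over the union of annotated exons, within 1%, for 89.23% of 11561 genes. Symbols and positions come from GENCODE M21 on GRCm38, and 52403 of 52550 identifiers had a symbol (Fosl1 was matched without its version).

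The main test was edgeR 4.0.16 (quasi-likelihood, robust, TMM scaling, filterByExpr at a minimum count of 10) in R 4.3.3, with Benjamini-Hochberg adjustment over 15778 genes. limma 3.58.1 and DESeq2 1.42.0 were alternatives. The others were DESeq2 size factors in edgeR, no filter or 50 counts, counts divided by 4, a replicate block, leaving out 1 library at a time, and log2(FPKM + 1) or log2(FPKM + 0.1). On simulated counts of 15422 genes, 12%, 54%, 68% and 96% of genes changed 1.3, 1.5, 2 and 4-fold were called. The changed genes, 50 per fold, were drawn at random from genes expected to hold over 50 deposited counts. Adjustment with so many planted changes is also more lenient than in these data, where 11 genes were called. These rates are therefore not those of the members and may be too high for these data. No pair of libraries looked like a copy: chi-square values over 12166 genes were 1.997 to 2.89 times those of sampling alone.

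The 10 genes and the lists were chosen with earlier results of these data known. Besides the members, the text names any called gene of each list and the 3 lowest in p, and for Fos and Fosl1 the 3 genes most like them. Genes that overlap members, and transcripts named as examples, were picked after their values were seen. A result that this rule would name is not reported here. The floor on counts covers counting error only. The SE of a log2 fold change was its size divided by the square root of edgeR's F statistic. Its interval used a t quantile on edgeR's total degrees of freedom. Symbols of 5 listed genes were updated through RefSeq synonyms.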

Additional observations from a re-analysis of the deposited data

How the results depend on the processing

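The count of 0 called members, and of 0 called member transcripts, held in every alternative run. The log2 fold changes of the members kept their sign in 151 of 160 alternative values, and no member passed the threshold in any of the 16 alternatives. The opposite sign was met in 9 values of 5 members (Fos, Fosb, Jun, Junb and Atf3). Leaving out 1 library at a time gave -0.0893 to 0.0383 for Fos (above 0 without IL-33 replicate 2 or untreated replicate 3), -0.22 to 0.19 for Fosb (below 0 without IL-33 replicate 1 or untreated replicate 2), -0.0503 to 0.033 for Jun (above 0 without IL-33 replicate 3 or untreated replicate 3) and -0.0074 to 0.0636 for Atf3 (below 0 without IL-33 replicate 2 or untreated replicate 1). Without a change of sign, it gave -0.23 to -0.08 for Ier3, 0.11 to 0.24 for Jund and 0.01 to 0.09 for Junb, and among other genes 0.30 to 0.75 for Maf, 0.07 to 0.21 for Fbxw7 and 0.14 to 0.30 for Hspa8. With all counts of Prdx2 added (4698 to 6740 per library, against 4897 to 6990 for Junb), Junb was at -0.0296. That value describes the sum of both genes and not Junb alone. The cause of the other changes of sign was not tested. The count of called genes over the whole table, 11, was 73 with DESeq2, 17 with no filter, 4 and 6 with limma on log2(FPKM + 1) and log2(FPKM + 0.1), and 11 to 90 when 1 library was left out (90 with IL-33 replicate 3 left out, 20 with IL-33 replicate 1 and 18 with untreated replicate 3 left out).

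Members at an unadjusted p under 0.05 numbered 0 without IL-33 replicate 2, untreated replicate 1 or untreated replicate 2, and without IL-33 replicate 3 they were Jund (0.00723) and Ier3 (0.0248) in place of Fosl1 and Egr1 (edgeR). Without untreated replicate 3 they were Jund (0.0168) and Fosl1 (0.031, edgeR). The replicate block gave Fosl1 (0.0425), Ier3 (0.0439) and Egr1 (0.0466, edgeR). With the counts of the overlapping gene added, Fosl1 was at 0.0953 and only Egr1 (0.0336) remained (edgeR).

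With the replicate block, 8 genes and 0 members were called. Libraries with the same number did not deviate together (r = 0.031, -0.0045 and -0.023 over 15778 genes), so the numbers were not used to pair them; whether same-numbered libraries share a culture or day is not stated. Shares depended on the unit by construction. On deposited counts, which are not per length, Fosl2 held 87.0%, Fosl1 8.45% and Fos 3.98% of the FOS family, and Jun 52.9% and Jund 26.4% of the JUN family. On summed transcript FPKM, Fosl2 held 65.3%, Fosl1 24.2%, Fos 9.65% and Fosb 0.832%, and Jun 37.7%, Jund 35.9% and Junb 26.4%. On gene FPKM these shares over 6 libraries were 57.2%, 31.5%, 10.7% and 0.591%, and 40.1%, 38.2% and 21.7%. The difference in share between IL-33 and untreated libraries changed sign for Fosb on summed transcript FPKM (-0.108 percentage points) and for Junb on deposited counts (0.0332). Leaving out 1 library gave -0.0068 to 0.778 points for Fos, -0.0629 to 0.111 for Fosb and -1.14 to 0.652 for Junb. Depth limits Fosb most, with 61 to 134 deposited counts per library.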
